A study of Mus musculus with 24 samples.

Results

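Chromatin accessibility 90, 120 and 150 min after doxycycline (the late window) was compared with accessibility at 0, 30 and 60 min (the early window) in mouse embryonic stem cells that carry a Firre knockout together with an inducible Firre transgene, called the KO Firre line here. The comparison used 6 of the 23 ATAC-seq libraries analysed, chosen by their titles, with 3 libraries in each window and 1 library per time. The other lines were a line with the inducible transgene and no knockout (WT Firre line, 3 late and 2 early libraries), a Firre knockout without the transgene (KO control, 3 and 3) and wild-type cells (WT control, 3 and 3). All lines received doxycycline at 1 ng/µL, the unit as labelled, on the day after seeding and 1 h after a medium change, and all were grown on gelatin with serum, LIF, the MEK inhibitor PD0325901 and the GSK3 inhibitor CHIR99021. The 60 min library of the WT Firre line was not analysed here. The sources used here do not say which promoter drives the transgene, where it was inserted or whether each line is a clone, so the genotype and the particular line cannot be told apart. No label says that the libraries came from separate cultures, and the 3 libraries of a window differ in time. The edgeR p-values below therefore rest on the spread between libraries within a window, pooled over all 23 libraries unless fewer are named. Each window of a line held libraries of that line alone. The spread also holds any change between the times of a window.

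Firre is an X-linked long noncoding RNA that stays in the nucleus, where it is known to bind hnRNP U through repeated sequence elements and to contact chromatin on several chromosomes. ATAC-seq marks open chromatin, because the Tn5 transposase inserts sequencing adapters mainly where DNA is not covered by nucleosomes, such as active promoters and enhancers. The assay does not measure Firre RNA, so the question a late and early comparison addresses is whether chromatin accessibility differs once the transgene has been switched on for longer.

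Raw read counts were deposited for 145143 consensus peaks (median width 734 bp), and 138702 peaks passed the filter on low counts. Total counts ran between 6993739 and 8321426 in the KO Firre line and between 5725518 and 14977148 over all libraries. The 0 min library of the KO Firre line stood apart. It was the highest of the 6 libraries at 20.1% and the lowest at 23.2% of 126166 peaks with a mean of at least 1 CPM (read counts scaled to the total of the library), whereas each of the other 5 libraries was highest at 15.1 to 17.2% and lowest at 14.5 to 15.9%. It also had the lowest total and the highest share of counts in mitochondrial peaks, 6.86% against 4.64 to 5.49% in the other 5. The leading peaks at Rapgef4, Gfap, Adgrg1, Pde6d and Apod are therefore given with and without it. So are the exonic Firre peak, the range of the promoter peaks lower late, and the medians of gene lists and annotation classes. Most other named peaks are given with it only. Mitochondrial share averaged 4.79 ± 0.205% late and 5.76 ± 0.993% early (SD, n = 3 each; exact two-sided permutation p = 0.2, where 0.1 is the smallest p possible). The share of counts in promoter peaks averaged 42.0 ± 0.305% late and 41.6 ± 0.723% early (exact permutation p = 0.5).

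Of all tested peaks, 1 met an adjusted p of 0.05 between the windows, an intronic peak of Rapgef4. Rapgef4 encodes EPAC2, a guanine nucleotide exchange factor that is activated by cAMP and acts on the small GTPase Rap. A straight-line fit over the 6 times called 3 peaks, the same Rapgef4 peak, a peak in the last exon of Gfap and a promoter peak of Adgrg1. Promoter sequence is shown for Rapgef4 and Adgrg1 because their start regions lie within accessible peaks of the data. Each run gives the 250 bases before the RefSeq start site, on the plus strand of GRCm38.p6. Capitals mark GC boxes (GGGCGG or its reverse complement CCGCCC, overlapping matches counted) and AP-1 motifs (TGANTCA, the same letters on both strands).

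Rapgef4, chr2:71980965-71981214: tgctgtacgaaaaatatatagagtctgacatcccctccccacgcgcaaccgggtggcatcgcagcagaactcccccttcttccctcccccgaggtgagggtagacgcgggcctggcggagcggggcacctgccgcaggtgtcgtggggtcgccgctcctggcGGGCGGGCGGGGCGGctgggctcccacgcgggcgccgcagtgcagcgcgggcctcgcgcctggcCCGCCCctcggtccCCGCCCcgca
Adgrg1, chr8:94984149-94984398: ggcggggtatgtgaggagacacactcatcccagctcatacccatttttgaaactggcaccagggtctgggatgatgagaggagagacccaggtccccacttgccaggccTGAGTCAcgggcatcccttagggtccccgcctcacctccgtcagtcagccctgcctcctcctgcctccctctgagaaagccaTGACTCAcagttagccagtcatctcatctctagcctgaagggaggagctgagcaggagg

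The Rapgef4 window held 5 GC box matches, no AP-1 motif and 73.6% G and C. The Adgrg1 window held 2 AP-1 motifs, no GC box and 59.2% G and C. Of 32851 RefSeq promoter windows of the same length, 32.7% held a GC box and 6.75% an AP-1 motif. These matches describe the letters alone.

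The Firre locus itself came first as a check of the lines. Of 19 tested peaks annotated to Firre, 12 had no count in any of the 6 KO Firre libraries, which allows up to 0.0633 CPM each over the 6 libraries (3 counts, counting error only). The 2 peaks with clear signal were one over exon 18 of 20 (mm10, chromosome X, 50569280 to 50570236) and one at the promoter (chromosome X, 50634917 to 50635918). In the KO Firre line the exonic peak had 12.5, 21.7, 22.3, 17.9, 15.2 and 15.8 CPM at 0, 30, 60, 90, 120 and 150 min. The lowest value was thus at 0 min and the highest 2 were at 30 and 60 min, and the windows overlapped. The peak averaged 16.3 ± 1.43 CPM late and 18.8 ± 5.49 CPM early (SD, n = 3 each), a log2 difference of -0.22 ± 0.33 (SE; edgeR adjusted p = 0.952), and of -0.44 without the 0 min library.

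Across lines the same exonic peak had 12.9, 36.2, 30.9, 25.2 and 22.1 CPM at 0, 30, 90, 120 and 150 min in the WT Firre line. It ran between 4.19 and 9.48 CPM in the KO control and between 1.34 and 2.69 CPM in the WT control. Both transgenic lines thus lay above both controls at every time, and in both the 30 min value was above the 0 min value. The promoter peak had 2.27, 2.81, 3.28, 2.32, 2.53 and 1.74 CPM in the KO Firre line, with overlapping windows and a log2 difference of -0.35 ± 0.29 (SE; edgeR adjusted p = 0.898). It ran between 12.9 and 16.1 CPM in the WT Firre line, between 0.25 and 1.96 CPM in the KO control and between 8.65 and 10.8 CPM in the WT control. In the 2 lines with an intact locus all values were therefore above all those of either knockout line. Whether the lower counts in the knockout lines reflect less open chromatin or missing DNA was not tested. None of the 19 Firre peaks was called and all 19 overlapped between windows. Over all tested peaks 0.000721% were called and 11.7% did not overlap in one direction or the other. The 12 Firre peaks without a count in these libraries could be neither called nor separated, so the 19 cannot be compared with these shares.

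**Figure D1:**
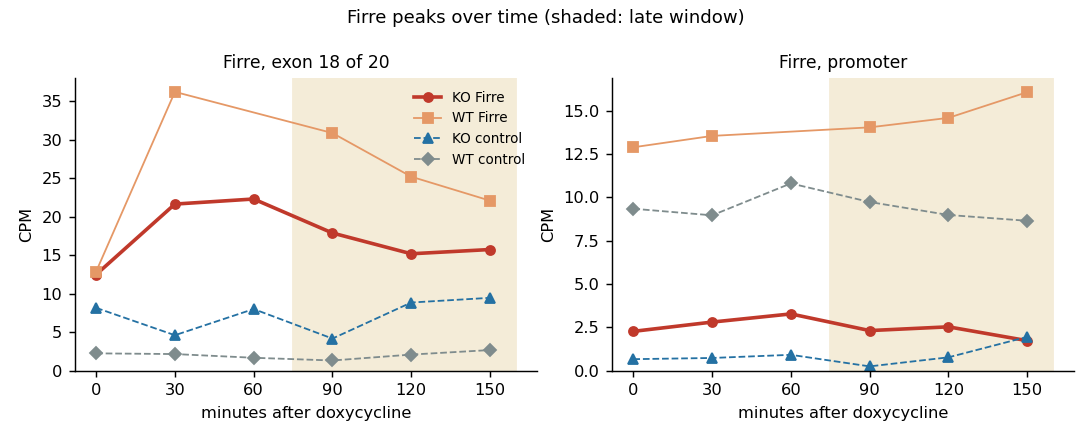
Accessibility of the exonic and the promoter peak of Firre in TMM-scaled CPM (y axis) against minutes after doxycycline (x axis), 1 point per library and 1 colour per line. In the KO Firre line the exonic peak is lowest at 0 min (12.5 CPM) and highest at 60 min (22.3 CPM), and the promoter peak stays between 1.74 and 3.28 CPM.

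Across the genome, few differences between the late and early windows of the KO Firre line could be told from the spread. In simulated counts the window test recovered 28.4% of 1.5-fold and 82.1% of 2-fold changes, so smaller changes can go uncalled. These shares were not split by accessibility, and recovery at weak peaks alone was not tested. The median log2 difference over tested peaks was 0.00 and the median SE was 0.242. At an unadjusted p under 0.05 there were 8088 peaks (5.83%), of which 3695 were higher late (2.66%) and 4393 were lower late (3.17%). All 3 late libraries were above all 3 early ones at 8279 peaks (5.97%) and below them at 7926 (5.71%). In the KO control the same counts were 5801 (4.18%) and 6211 (4.48%). No peak was called between the windows in the KO control (0% of those tested), and DESeq2 and limma-voom also called 0. At an unadjusted p under 0.05 the KO control had 7547 peaks (5.44%), 4021 higher late (2.9%) and 3526 lower late (2.54%). The WT Firre line had 1 called peak (0.000721%), the Rapgef4 peak again, and 7829 peaks (5.64%) at an unadjusted p under 0.05, 4115 higher late (2.97%) and 3714 lower late (2.68%).

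**Figure D2:**
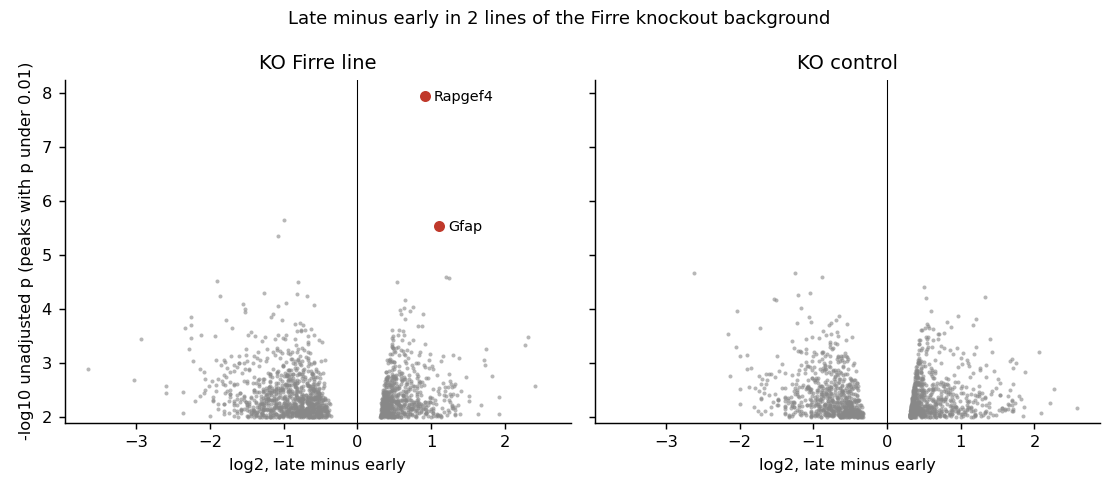
Late minus early log2 difference (x axis) against minus log10 of the unadjusted p from edgeR's quasi-likelihood test (y axis), 1 point per peak with p under 0.01, for the KO Firre line on the left and the KO control on the right. The Rapgef4 intronic peak of the KO Firre line, with a log2 difference of 0.92, stands above all other points, and the Gfap peak at 1.11 is marked below it.

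The Rapgef4 peak spans 1026 bp in intron 1 of 5 (mm10, chromosome 2, 71983023 to 71984048). Its centre lies 2320 bp downstream of the RefSeq start site that follows the promoter sequence shown above. Over the 6 times the KO Firre line had 5.26, 11.8, 8.95, 16.4, 14.1 and 19.1 CPM at this peak. Every late library was above every early library. The peak averaged 16.5 ± 2.52 CPM late and 8.66 ± 3.27 CPM early (SD, n = 3 each), a log2 difference of 0.92 ± 0.15 (SE; edgeR adjusted p = 0.00159), and its slope was 0.56 ± 0.09 log2 units per hour (SE; edgeR adjusted p = 0.000298), one of 3 slopes called (0.00216% of those tested). At an unadjusted p under 0.05 there were 9242 slopes (6.66%), 4106 positive (2.96%) and 5136 negative (3.7%). In bulk libraries, a larger share of cells with the site open and more insertions per open cell cannot be told apart.

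The WT Firre line had 3.68, 7.22, 13.6, 12.9 and 15.9 CPM at this peak at 0, 30, 90, 120 and 150 min. Its late libraries were again all above its early ones, with a log2 difference of 1.36 ± 0.19 (SE; edgeR adjusted p = 8.9e-06). The KO control had 2.95, 3.70, 3.16, 4.06, 4.21 and 4.79 CPM at the 6 times, a narrower range at lower levels, in which the late libraries were also above the early ones. Its averages were 4.35 ± 0.385 CPM late and 3.27 ± 0.386 CPM early, with a log2 difference of 0.44 ± 0.25 (SE, n = 3 each; edgeR adjusted p = 0.926). The WT control ran between 2.92 and 4.54 CPM. The log2 difference in the KO Firre line exceeded that in the KO control by 0.48 ± 0.30 (SE; edgeR unadjusted p = 0.113, adjusted p = 1), so the 2 windowed differences were not separated by the test. Against the WT Firre line the difference was -0.44 ± 0.25 (SE; edgeR adjusted p = 1).

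The call at Rapgef4 rested on single libraries, and it was made by edgeR and limma-voom but not by DESeq2. Without the 0 min library of the KO Firre line the log2 difference was 0.68 with an edgeR adjusted p of 0.449. Without the 150 min library it was 0.80 with an edgeR adjusted p of 0.767, and without the 60 min library the edgeR adjusted p was 0.056. DESeq2 gave an adjusted p of 1, whereas limma-voom called the peak (log2 difference 0.98, adjusted p = 0.00389). Scaling by DESeq2 size factors, by total counts or with loess offsets kept the call, with edgeR adjusted p-values between 0.000229 and 0.0057. A fit with times as a replicate block over the 4 lines called no peak.

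The other 16 Rapgef4 peaks had log2 differences between -0.31 and 0.63, and none was called. At 2 of them all late libraries were above all early ones, an order found at 5.97% of all tested peaks, and at 0 below. The summed accessibility of the 16 peaks was 71.5 to 78.9 CPM late and 67.6 to 71.9 CPM early. The Rapgef4 promoter peak (chromosome 2, 71980891 to 71981778) had 4.41, 2.94, 5.04, 3.61, 4.69 and 8.19 CPM at the 6 times. Only the 150 min value stood above the rest and the windows overlapped, with a log2 difference of 0.41 ± 0.23 (SE; edgeR adjusted p = 0.863).

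The Gfap peak covers 468 bp of exon 8 of 8 (chromosome 11, 102890851 to 102891318), 6116 bp downstream of the RefSeq start of Gfap, which encodes the intermediate filament protein of astrocytes. The KO Firre line had 1.28, 3.88, 3.66, 5.67, 5.07 and 8.56 CPM there at the 6 times. All late libraries were above all early ones, with the lowest value at 0 min and the highest at 150 min. Its averages were 6.43 ± 1.87 CPM late and 2.94 ± 1.44 CPM early (SD, n = 3 each). The windowed log2 difference of 1.11 ± 0.23 was not called (SE; edgeR adjusted p = 0.134) and was 0.77 without the 0 min library, whereas the slope of 0.76 ± 0.13 log2 units per hour was (SE; edgeR adjusted p = 0.00172). The windowed difference was called with loess offsets (edgeR adjusted p = 0.0444), with the 6 KO Firre libraries alone (0.0315) and with 30 to 150 min against 0 min (0.0272). Without the 0 min library of the KO Firre line the slope had an edgeR adjusted p of 1, and without the 150 min library 0.421.

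At the same Gfap peak the KO control stayed between 2.15 and 3.03 CPM over the 6 times, with overlapping windows. The WT Firre line had 2.76, 2.58, 4.13, 4.34 and 4.11 CPM at 0, 30, 90, 120 and 150 min, with late above early. The KO Firre difference exceeded that of the KO control by 1.21 log2 units ± 0.38 (SE; edgeR unadjusted p = 0.00169, adjusted p = 1). The other 2 Gfap peaks had log2 differences of -0.03 and 0.03.

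The Adgrg1 peak (chromosome 8, 94983801 to 94984931) contains the start site after the second sequence above. Adgrg1 encodes an adhesion G protein-coupled receptor. In the KO Firre line it had 4.41, 5.08, 6.05, 8.24, 11.7 and 11.5 CPM at the 6 times. The windows did not overlap, and the highest 2 values were at 120 and 150 min. The peak averaged 10.5 ± 1.94 CPM late and 5.18 ± 0.829 CPM early (SD, n = 3 each), with a log2 difference of 1.01 ± 0.28 that was not called (SE; edgeR adjusted p = 0.802) and was 0.91 without the 0 min library. It was called with the 6 KO Firre libraries alone (edgeR adjusted p = 0.000704) and with 120 and 150 min against 0 and 30 min (edgeR adjusted p = 0.00641). Its slope of 0.62 ± 0.11 log2 units per hour was called (SE; edgeR adjusted p = 0.0127) but not by DESeq2 (adjusted p = 1), and not without the 0 min library of the KO Firre line (edgeR adjusted p = 0.634). Leaving out the 30, 60, 120 or 150 min library also ended the call, with edgeR adjusted p-values between 0.0555 and 0.158.

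The WT Firre line had 3.55, 5.55, 5.71, 8.15 and 8.10 CPM at the Adgrg1 peak at 0, 30, 90, 120 and 150 min, with late above early. The KO control had 2.95, 2.59, 4.34, 3.68, 2.99 and 6.35 CPM at the 6 times, and its windows overlapped. The KO Firre difference exceeded that of the KO control by 0.61 ± 0.47 log2 units (SE; edgeR unadjusted p = 0.207, adjusted p = 1). The other 7 Adgrg1 peaks had log2 differences between 0.11 and 0.47. At 1 of them all late libraries were above all early ones, an order found at 5.97% of all tested peaks.

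Rapgef4, Adgrg1, Pde6d and Apod had been singled out in an earlier analysis of these libraries, as loci more accessible in the KO Firre line than in the KO control, so their direction is not independent evidence. Pde6d encodes a chaperone of prenylated proteins, and its peak lies in intron 1 of 3 (chromosome 1, 86549363 to 86551159). It had 10.4, 16.7, 15.6, 19.4, 21.7 and 18.2 CPM at the 6 times in the KO Firre line, with late above early and the lowest value at 0 min. The log2 difference was 0.47 ± 0.13 (SE; edgeR adjusted p = 0.778), and 0.29 without the 0 min library. The KO control ran between 7.99 and 10.1 CPM with overlapping windows, while the WT Firre line was higher late, at 17.1, 15.5 and 17.6 CPM, against 8.68 and 13.9 CPM early.

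Apod encodes apolipoprotein D, a lipocalin that carries small hydrophobic molecules, and its peak lies in intron 1 of 2 (chromosome 16, 31299422 to 31301637). It had 23.3, 29.6, 27.6, 36.3, 34.6 and 35.7 CPM at the 6 times in the KO Firre line. All late libraries were above all early ones, with a log2 difference of 0.40 ± 0.12 (SE; edgeR adjusted p = 0.778), and of 0.31 without the 0 min library. The KO control overlapped, at 17.8 to 25.7 CPM late and 20.4 to 25.1 CPM early. The KO Firre difference exceeded that of the KO control by 0.66 log2 units at Pde6d and by 0.50 at Apod (edgeR unadjusted p = 0.00246 and 0.00574, both with adjusted p = 1).

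A peak in intron 2 of 5 of Tmbim4 (chromosome 10, 120216782 to 120217763), a gene of the transmembrane BAX inhibitor motif family, was chosen after its values were seen, because a fit of the 6 KO Firre libraries alone called it (edgeR adjusted p = 0.00804). It had 16.6, 21.9, 20.3, 34.1, 27.4 and 28.5 CPM at the 6 times in the KO Firre line. Late was above early, but so it was in the KO control, at 46.8, 37.5 and 26.1 CPM late against 25.1, 25.7 and 23.8 CPM early. The log2 differences were 0.61 ± 0.16 and 0.55 ± 0.15 in the KO Firre line and the KO control (SE), and they differed by 0.06 ± 0.22 (edgeR adjusted p = 1). That 6-library fit called 6 of 118877 tested peaks (0.00505%) between the windows and 7 slopes (0.00589%). The 6 window calls were the higher peaks of Rapgef4, Gfap, Adgrg1 and Tmbim4 and 2 lower peaks, at Gm49503 (log2 difference -1.01; edgeR adjusted p = 0.0302) and A230004M16Rik (-1.08; edgeR adjusted p = 0.0315).

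**Figure D3:**
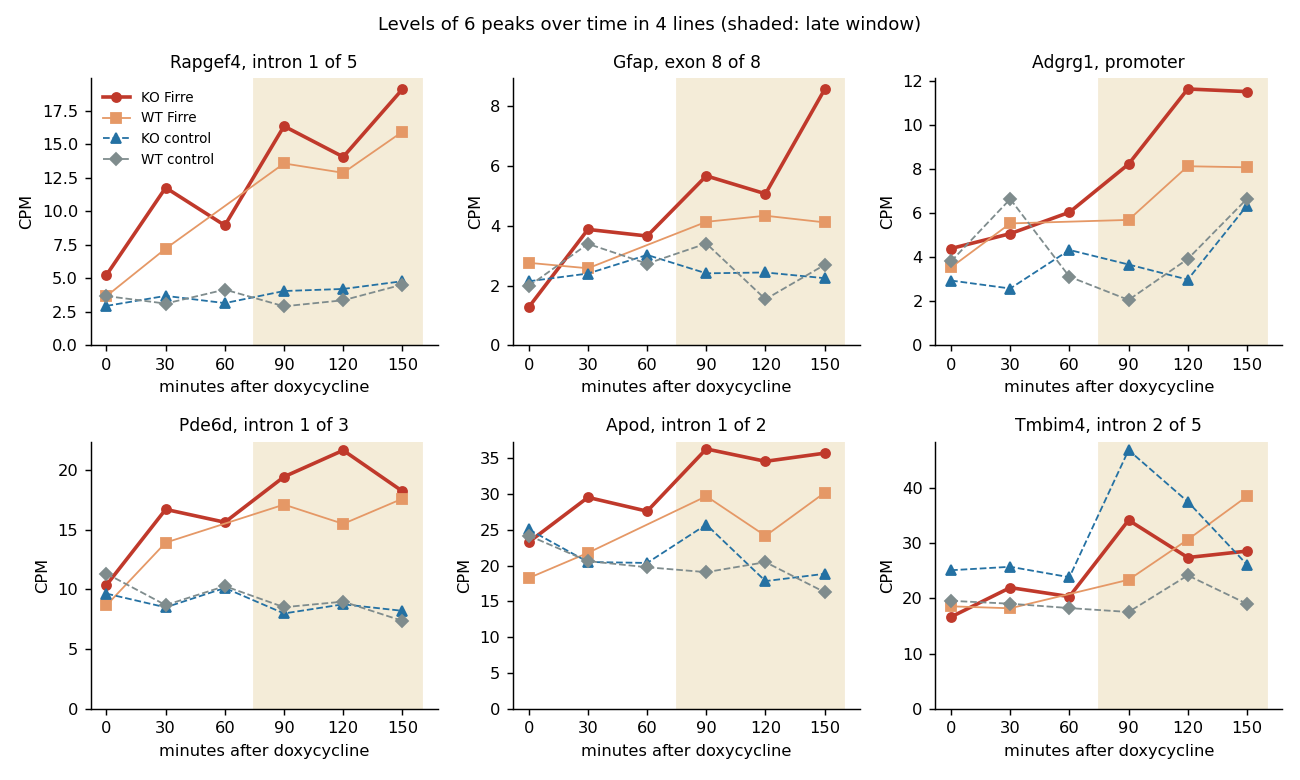
TMM-scaled CPM (y axis) of 6 peaks, at Rapgef4, Gfap, Adgrg1, Pde6d, Apod and Tmbim4, against minutes after doxycycline (x axis), 1 point per library and 1 colour per line. In the KO Firre line the late values lie above the early ones in all 6 panels, and at Rapgef4 and Tmbim4 those of the KO control do too.

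Each of the next peaks was not called and was chosen by its small p-value in this contrast, so the absence of overlap between windows is a description. Among promoter peaks that were higher late, Syt12, a member of the synaptotagmin family, had 6.96, 5.35, 5.55, 10.2, 7.98 and 8.81 CPM at the 6 times. Its late values were above its early ones by 0.60 ± 0.17 log2 units (SE; edgeR adjusted p = 0.778), whereas the KO control overlapped. Nppb, which encodes the B-type natriuretic peptide, had 19.9, 28.6, 28.1, 36.4, 34.7 and 31.3 CPM, a log2 difference of 0.41 ± 0.12 (SE; edgeR adjusted p = 0.778). The others were Ddx54, an RNA helicase gene (log2 difference 0.57), Smad1, which encodes a transducer of BMP signals (0.75), and the X-linked ribosome biogenesis gene Utp14a (0.51).

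Promoter peaks that were lower late were mostly weak. Clec18a, a C-type lectin gene, had 3.69, 1.47, 2.77, 0.90, 1.01 and 0.74 CPM at the 6 times. Its late values were all below its early ones, with a log2 difference of -1.55 ± 0.38 (SE; edgeR adjusted p = 0.638). Dhtkd1, which encodes a mitochondrial dehydrogenase subunit of lysine breakdown, had no count at 90 min and averaged 0.42 ± 0.44 CPM late and 1.65 ± 0.51 CPM early (SD, n = 3 each). Pkd1, the polycystin 1 gene, averaged 1.43 ± 0.47 CPM late and 3.12 ± 0.17 CPM early. Fkbp6, Klc1 and Nvl had log2 differences of -0.82, -0.96 and -0.67. At the kinesin light chain gene Klc1 the KO control also had every late value below every early one. The Nvl peak is annotated as a transcript end of that gene. It counted as a promoter peak because it lies 207 bp from the start site of Fgfr3-ps. All 6 peaks had edgeR adjusted p-values of 0.638 or above. Without the 0 min library each of these 6 lower promoter peaks kept a negative log2 difference, from -0.51 at Nvl to -1.79 at Dhtkd1.

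Away from promoters, an intergenic peak whose nearest annotated gene was Card10, a scaffold gene of NF-kappaB signalling (chromosome 15, 78806289 to 78807213), had 7.82, 8.42, 5.68, 11.3, 11.02 and 11.8 CPM at the 6 times in the KO Firre line. Late was above early by 0.65 ± 0.16 log2 units (SE; edgeR adjusted p = 0.638), while the KO control overlapped, at 7.04 to 9.51 CPM late and 7.76 to 10.1 CPM early. The 2 differences were apart by 0.88 log2 units (edgeR unadjusted p = 0.000135, adjusted p = 1). An intronic Zfp608 peak had late above early in the KO Firre line (log2 difference 1.20), the KO control and the WT Firre line alike. Intronic peaks of Rngtt, the mRNA capping enzyme gene, and an exonic peak of Wdcp were lower late, with log2 differences of -1.86 and -0.80 (edgeR adjusted p = 0.612 and 0.492).

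Some of the lower peaks ran against other lines. An intronic Dlgap4 peak, in a gene for a postsynaptic scaffold protein (chromosome 2, 156704682 to 156706066), had 9.09, 6.69, 6.68, 3.22, 4.31 and 5.09 CPM at the 6 times in the KO Firre line. There the late values were all below the early ones, whereas the KO control was higher late, at 6.47, 5.54 and 7.53 CPM, against 5.10, 3.51 and 4.74 CPM early. The difference between the 2 lines was -1.35 ± 0.28 log2 units (SE; edgeR unadjusted p = 3.5e-06, adjusted p = 0.486), the smallest adjusted p of that contrast. An intronic peak of Zc3h3, a zinc finger gene, had 0.52, 0.89 and 0.25 CPM late against 1.85, 2.41 and 2.02 CPM early in the KO Firre line. The WT Firre line was higher late there, at 1.51, 1.97 and 1.80 CPM, against 1.18 and 1.29 CPM early.

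The direct test of whether the windowed difference in the KO Firre line departed from that in the KO control called 0 of 138702 peaks by edgeR, DESeq2 and limma-voom, with 5485 peaks (3.95%) at an unadjusted p under 0.05, 2501 higher (1.8%) and 2984 lower (2.15%). Against the WT Firre line edgeR, DESeq2 and limma-voom also called 0, with 5376 peaks (3.88%) at an unadjusted p under 0.05, 2567 higher (1.85%) and 2809 lower (2.03%). In simulated counts the contrast with the KO control recovered 9% of 1.5-fold and 47.8% of 2-fold changes. The contrast with the WT Firre line recovered 1.5% and 41.8%, so an absence of calls does not exclude changes of these sizes. For these contrasts too, recovery at weak peaks alone was not tested. The 3 lines share no libraries, so signs can be set side by side. Of the 8088 peaks at an unadjusted p under 0.05 in the KO Firre line, 62.4% had the same sign in the KO control and 61.8% in the WT Firre line, where over all tested peaks the shares were 55% and 54.9%. Of the 20 with the smallest p, 11 had the same sign in the KO control and 14 in the WT Firre line. Late libraries were above early ones in both transgenic lines and not in the KO control at 1371 peaks (0.988%), which included those of Gfap, Adgrg1, Pde6d and Apod but not that of Rapgef4.

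Promoter peaks were next read by gene list, with no test of any list. Over all 22706 promoter peaks the median log2 difference was 0.045, and the windows did not overlap with late above at 2202 (9.7%) and with late below at 977 (4.3%). The median was 0.059 in the KO control and 0.073 in the WT Firre line, and 0.013 in the KO Firre line without its 0 min library. With loess offsets, which remove trends with accessibility, it was -0.007 in the KO Firre line. Of 22 gene lists with promoter peaks, 20 had a positive median, of which 6 were at or below 0 without the 0 min library, 14 with loess offsets and 3 with scaling by total counts. At an unadjusted p under 0.05, 3.44% of promoter peaks were higher late and 2.13% lower late. No promoter peak of any list was called between the windows in the fit of 23 libraries.

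The labelled cell type was checked first. All 12 core pluripotency genes had promoter peaks, 18 in all, whose summed accessibility was 675 to 736 CPM late and 603 to 717 CPM early. The one with the smallest p, at Pou5f1, which encodes the pluripotency factor OCT4, had 75.2, 85.2, 82.5, 93.8, 91.4 and 92.7 CPM at the 6 times. Late was above early there by 0.19 ± 0.12 log2 units (SE; edgeR adjusted p = 0.870), and the KO control overlapped. Sox2 and Nanog, which encode the other core factors, had log2 differences of 0.02 and -0.03, and the median of the list was 0.038, or -0.003 without the 0 min library. Fibroblast markers had 15 promoter peaks at 11 of 14 genes, with 202 to 218 CPM late and 191 to 203 CPM early and a median of 0.067, or 0.082 without the 0 min library. Accessible promoters at these genes do not say whether the genes were transcribed. Postn, which encodes the matrix protein periostin, was the member with the smallest p, at -0.79 ± 0.32 log2 units (SE; edgeR adjusted p = 0.825). Germ layer markers had a median of 0.012, or -0.004 without that library, and none of 10 genes of the 2-cell-like list had a promoter peak.

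Stem cell state and signalling lists lay near the median of all promoters, of which 9.7% were higher late in every library. Naive pluripotency genes had a median of 0.037 with 1 of 24 peaks higher late in every library, formative genes 0.037 with 4 of 29, and LIF pathway genes 0.015 with 1 of 25. Leaving out the 0 min library gave medians of 0.015 for naive, 0.011 for formative and -0.025 for LIF pathway genes. Among formative genes, the promoter of the FGF signalling target Etv4 had a log2 difference of 0.25 and that of Wnt8a 0.33. Wnt pathway promoters had a median of 0.047, with Rnf43, a Wnt receptor ubiquitin ligase gene, at 0.27. Immediate early genes, which respond within minutes to serum and medium changes, had a median of 0.067 with 4 of 26 peaks higher late in every library. There Klf6 stood at 0.27 and Junb at 0.20. ERK target promoters had a median of 0.075 with 5 of 17, a share that was not tested against the 9.7% of all promoter peaks. Medians without the 0 min library were 0.059 for Wnt, 0.041 for immediate early and 0.021 for ERK target promoters.

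The highest medians of the lists in the KO Firre line were those of heat shock and sterol synthesis genes, and the other lines had positive medians for both as well. This order did not hold in every setting. Without the 0 min library the fibroblast median lay above that of sterol synthesis, and with loess offsets that of the loci from the earlier analysis did (0.049, against 0.047 for sterol synthesis and 0.058 for heat shock). Heat shock promoters had a median of 0.16 in the KO Firre line, 0.14 in the KO control and 0.22 in the WT Firre line. The inducible chaperone gene Hspa1a had 30.3, 26.4 and 30.6 CPM late against 22.6, 23.9 and 25.5 CPM early, with a log2 difference of 0.28 ± 0.12 (SE; edgeR adjusted p = 0.835). Late lay above early at 3 of 12 heat shock peaks, where it did at 9.7% of all promoter peaks. The median of the list without the 0 min library was 0.11. Sterol synthesis promoters had a median of 0.14 in the KO Firre line, 0.16 in the KO control and 0.25 in the WT Firre line, and 0.076 in the KO Firre line without its 0 min library. Fdft1, which encodes squalene synthase, had 40.6, 41.2 and 38.7 CPM late against 27.3, 33.2 and 38.8 CPM early, with overlap at the 60 min value and a log2 difference of 0.27 ± 0.13 (SE; edgeR adjusted p = 0.836). Stress response promoters had a median of 0.10, p53 targets 0.056 and circadian genes 0.079, with the serine synthesis gene Psph at 0.25, Sesn1 at 0.23 (in a peak that the deposited table assigns to Cep57l1) and the clock gene Per2 at 0.23. Leaving out the 0 min library gave 0.045 for stress response, 0.021 for p53 targets and -0.019 for circadian genes.

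Genes tied to Firre by earlier work had no called promoter peak. Of 5 genes whose loci are known as nuclear contacts of Firre, 3 had promoter peaks. The median of their 6 peaks was -0.029, or -0.122 without the 0 min library, against 0.045 and 0.013 over all promoter peaks. It was 0.073 in the KO control and 0.12 in the WT Firre line. The only 1 of the 6 with a positive difference in the KO Firre line lay at the promoter of Ppp1r10, a protein phosphatase regulator gene. This peak, which the deposited annotation assigns to Mir1894, had 92.6, 84.8 and 87.3 CPM late against 74.0, 74.1 and 84.6 CPM early. Late was above early there by 0.18 ± 0.12 log2 units (SE; edgeR adjusted p = 0.873). Promoters of CTCF, cohesin and other architecture genes had a median of 0.095, or 0.031 without the 0 min library. Of their 15 peaks 4 were higher late in every library, where 9.7% of all promoter peaks were. Among the 4 was that of the cohesin release factor gene Wapl at 0.29. Ctcf itself stood at 0.10 ± 0.12 with overlapping windows. Genes of the X inactivation region had a median of -0.009, or -0.138 without the 0 min library, and no peak of theirs was free of overlap. A peak within 1000 bp of the RefSeq start of Xist, the RNA that silences an X chromosome, which the deposited table annotates as the transcript end of Gm26992, had a log2 difference of -0.31 ± 0.20 (SE; edgeR adjusted p = 0.873).

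Of the remaining lists, imprinted genes had a median of 0.022 with Kcnq1ot1, an imprinted noncoding RNA, at 0.28. MYC targets had 0.072 with Wdr12, a ribosome biogenesis gene, at 0.34, and oxidative phosphorylation genes 0.054 with Cox6c at -0.22. Polycomb genes had 0.092, with Kdm2b, which encodes a CpG island binding subunit, at -0.84, Ezh1 at -0.44 and Jarid2 at 0.48. Medians without the 0 min library were -0.006 for imprinted genes, 0.005 for MYC targets, -0.024 for oxidative phosphorylation and 0.039 for Polycomb genes. The 9 loci singled out in an earlier analysis of these data had 24 promoter peaks with a median of 0.11, or 0.071 without the 0 min library. Of these peaks 3 were higher late in every library and none lower, where 9.7% and 4.3% of all promoter peaks were. The choice of these loci on these libraries makes this no independent evidence.

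**Figure D4:**
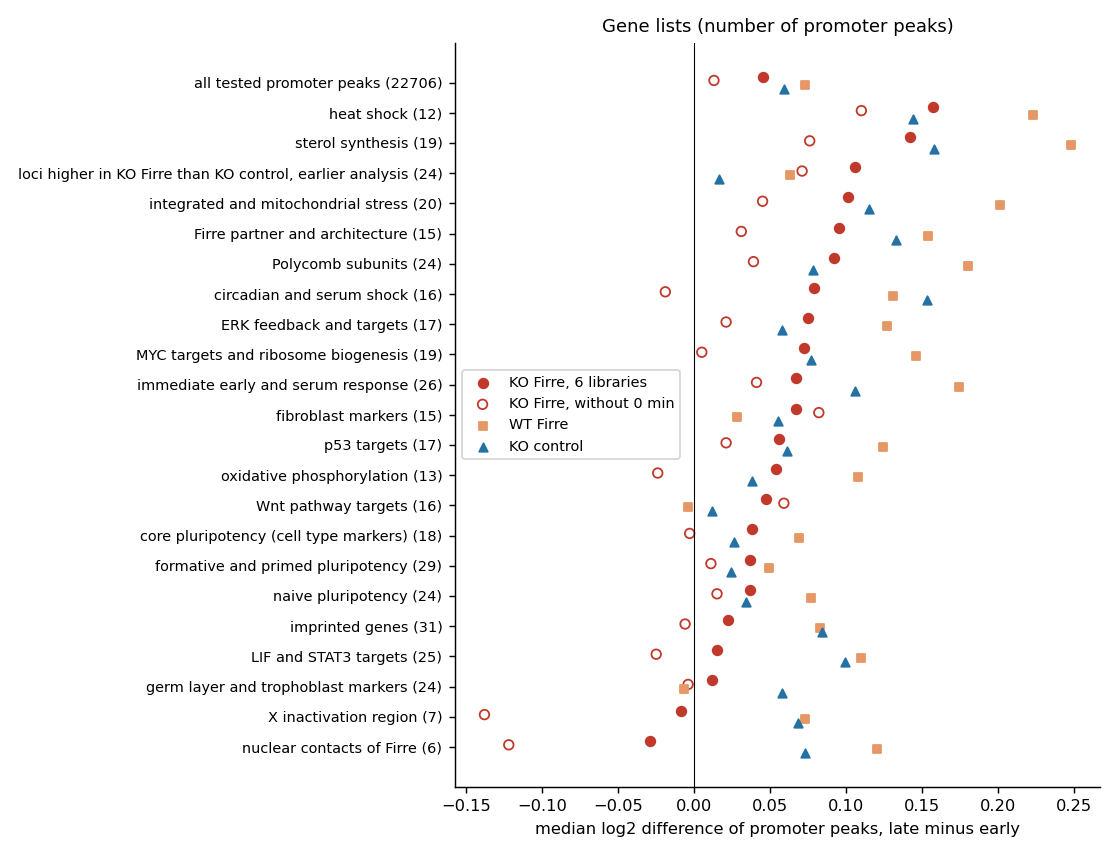
Median late minus early log2 difference of promoter peaks (x axis) for each gene list (y axis) in the KO Firre line (filled circles, and open circles without its 0 min library), the WT Firre line (squares) and the KO control (triangles), with all 22706 promoter peaks in the top row. In the KO Firre line the heat shock and sterol synthesis lists lie furthest to the right (0.16 and 0.14), and the other lines also have positive medians there (0.14 to 0.25).

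By position, peaks annotated as promoters had a median of 0.052, intergenic peaks 0.000, introns -0.013, exons -0.014 and transcript ends -0.043. Without the 0 min library the medians were 0.004 for intergenic peaks, 0.001 for introns, -0.008 for exons and -0.026 for transcript ends. Relative to the mean of the 6 libraries, promoter peaks had a median of -0.099 at 0 min and of 0.007 to 0.050 at the other times. The 0 min library was therefore the low one, and without it the promoter median was 0.018. Mitochondrial share was highest in that library, and its part in the promoter medians was not tested. Narrow peaks under 500 bp had a median of -0.049, and -0.002 without the 0 min library.

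Chromosome X, which carries Firre, had 2278 tested peaks with a median of 0.075, while the autosomes ran between -0.020 and 0.017. All late libraries were above all early ones at 9.31% of its peaks and below at 2.99%. The median on X was 0.058 in the KO control and 0.068 in the WT Firre line. Without the 0 min library of the KO Firre line the median on X was 0.027. The X share of counts averaged 1.33 ± 0.020% late and 1.27 ± 0.080% early (SD, n = 3 each; exact permutation p = 0.3), and the lowest value, 1.18%, was that of the 0 min library.

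**Figure D5:**
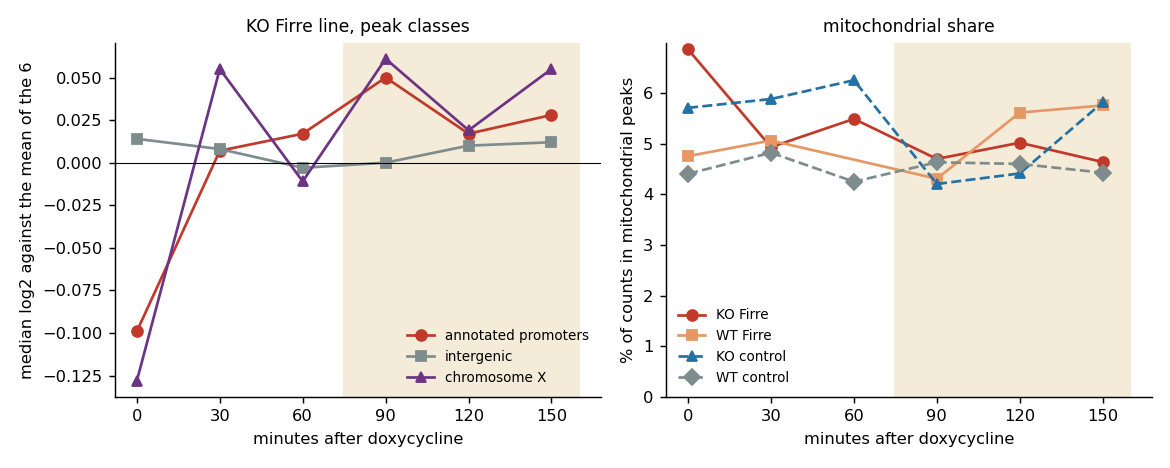
Left, median log2 accessibility of promoter, intergenic and chromosome X peaks in each KO Firre library relative to the mean of the 6 (y axis). Right, percent of counts in mitochondrial peaks in each library of the 4 lines (y axis). Both are against minutes after doxycycline (x axis), with the late window shaded. Among the 6 KO Firre libraries that of 0 min stands apart, with a mitochondrial share of 6.86% and the lowest promoter median (-0.099).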

How the data were processed

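Raw read counts per consensus peak and library were used as deposited by the authors. Peaks were called with MACS2 2.2.7.1 and counted with featureCounts on mm10, per the submitters' processing notes; the aligner is not given in the sources used here. The deposited peak table gives start, end and distance to the nearest start site as a score in bp. Windows were taken from the times in the labels. The counts were fitted with edgeR 4.0.16 (TMM scaling, filterByExpr with a minimum count of 10, robust quasi-likelihood test) over 23 libraries in 8 groups of line and window, with 15 residual degrees of freedom. Differences are late minus early, with Benjamini-Hochberg adjustment over 138702 peaks and calls at 0.05. A second fit gave each line a slope per hour. CPM are counts scaled to the TMM-adjusted library total, and SE is the log2 difference over the square root of F. DESeq2 1.42.0, limma 3.58.1 (voom), other scalings and filters, and fits without each library were run as alternatives, 40 in all. The scripts were tested on simulated data.

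Peaks named by their p had a mean of at least 1 CPM in the KO Firre line. They were called peaks, then up to 6 promoter peaks and 4 other peaks per direction by smallest p. Promoter peaks lay within 1000 bp of a start site or were annotated as promoter in the deposited table. All Firre peaks, peaks of the gene lists and peaks of the loci from the earlier analysis were named without the minimum of 1 CPM. Members and lists were chosen with earlier results of these data known. Equal times in different lines correlated between -0.11 and 0.15 in their deviations, so times were not treated as pairs. Intervals and floors cover counting error only. Promoter sequences came from RefSeq (GRCm38.p6). The WT Firre 60 min library was not analysed.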

Additional observations from a re-analysis of the deposited data

Results flagged for a closer look

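At 3 of the named peaks every late library of the KO Firre line lay on one side of its early libraries while every late library of another line lay on the opposite side. Over all 138702 tested peaks such opposite patterns were found at 472 (0.34%) against the KO control and at 1161 (0.837%) against the WT Firre line. The peaks of Zc3h3 and Dlgap4 were named by their small p between the KO Firre windows, so the 3 cannot be compared with these shares. The WT Firre line also had only 2 early libraries. The intronic Zc3h3 peak differed by -2.36 log2 units between the KO Firre and the WT Firre line (edgeR unadjusted p = 0.000148, adjusted p = 1). The intronic Dlgap4 peak differed by -1.35 between the KO Firre line and the KO control (edgeR unadjusted p = 3.5e-06, adjusted p = 0.486). A second intronic peak of Rapgef4 (chromosome 2, 72074890 to 72075508) had 4.64, 4.56 and 5.34 CPM late against 3.41, 3.21 and 2.77 CPM early in the KO Firre line, and 3.35, 2.63 and 3.34 CPM late against 3.55 and 4.77 CPM early in the WT Firre line, a difference of 1.03 (edgeR unadjusted p = 0.00266, adjusted p = 1). None of the 3 passed adjustment over all tested peaks.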

How the results depend on the processing

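The window count in the KO Firre line (1 call) was 0 with DESeq2, 2 with loess offsets, 6 with its 6 libraries alone, 0 without the 0 min libraries, 44 with 30 to 150 min against 0 min and 0 with times as a replicate block over the 4 lines. It was 0 without its 0, 60 or 150 min library and 2 without its 30 min library, and ran from 0 to 57 with libraries left out of the 6-library fit as well. The slope count (3) was 0 with DESeq2, 8 without the KO control libraries of 30 and 90 min, 7 with the 6 libraries alone and 0 without the 0 min libraries, and ran from 0 to 98 with single libraries left out. The WT Firre count (1) was 5 with loess offsets, 2 with a minimum count of 30, 3 without those KO control libraries and 0 without the 0 min libraries, and ran from 0 to 5 with single libraries left out. The KO control count (0) was 32 without its 150 min library. The differences between lines stayed at 0 calls in every setting run, the replicate block included. With 30 to 150 min against 0 min the sign turned at Rngtt (0.115) and at the Firre exonic (0.574) and promoter peaks (0.16). Loess offsets moved medians to -0.029 (formative), -0.036 (germ layer), 0 (fibroblast), -0.04 (immediate early), -0.026 (Wnt), -0.035 (p53), -0.03 (circadian), 0.049 (earlier loci), -0.048 (oxidative phosphorylation), 0.017 (intergenic), and 0.035, 0.016 and -0.088 for peaks under 500, of 500 to under 1000 and of at least 3000 bp. They also gave 0.058 (heat shock), 0.047 (sterol synthesis), 0.018 (stress), 0.007 (ERK), -0.087 (LIF), -0.137 (nuclear contacts), -0.005 (Polycomb), 0.004 (architecture), -0.016 (naive), -0.007 (core), -0.046 (imprinted), -0.007 (MYC) and 0.004 (X inactivation). A 3000 bp promoter window gave -0.027 for fibroblast markers. Scaling by total counts gave -0.04 (exons), -0.039 (introns), -0.026 (intergenic) and -0.033 (500 to under 1000 bp). The causes were not tested.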
